A study of Homo sapiens with 6 samples.

Results

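The genes described here are those whose expression differed in the same direction in fludarabine-resistant pools 17 and 28 of HG3 cells, each set against the control pool of the same number. Genes were chosen by these measured differences alone: a gene was taken when the resistant library exceeded the control library by at least 1 on the log2(FPKM + 1) scale in pool 17 and again in pool 28, or was lower by at least 1 in both. FPKM are fragments scaled by transcript length and by library size. Of 11092 genes tested, 142 met this rule. Higher in both resistant pools were 86 genes (0.775% of those tested) and lower in both were 56 (0.505%), while 14 passed the same size in opposite directions.

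HG3 is a lymphoblastoid B cell line that was established from chronic lymphocytic leukaemia with Epstein-Barr virus. The libraries used here were 2 controls and 2 fludarabine-resistant ones, 4 of the 6 in the series, and the remaining pair, pool 18, served only to see whether its differences had the same direction. The titles call the resistant libraries treated and the sample type calls them fludarabine-resistant; no source used here gives the dose, the time under drug or the insertions that each pool carried. The study mutagenised these cells with a transposon, and its design text asks whether resistant cells differed from parental cells across the transcriptome. Whether each pool was selected on its own from the outset is not stated in the labels, and p-values therefore cover only the spread between these libraries. Pools 17 and 28 were put together because their differences were already seen to be alike, so the counts and fits below that use these 4 libraries describe that choice and are not evidence for it.

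Fludarabine is a purine nucleoside analogue that is phosphorylated in the cell and then blocks DNA synthesis. Type I interferons act through the receptor, JAK kinases and a STAT complex that includes IRF9, which binds interferon response elements in promoters and turns on antiviral genes. Epstein-Barr virus-transformed B cells are known to keep a part of this programme active. Replication-dependent histone genes lie in clusters and are made in S phase, mostly as transcripts without a poly(A) tail.

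Between 10936 and 11331 gene symbols reached an FPKM of 1 in a library. Relative depth, taken from the steps of low values, was 1 in control 17, 1.26 in control 28, 1.04 in resistant 17 and 1.31 in resistant 28. Of 11 B cell markers 10 reached an FPKM of 1 in at least 1 of the 4 libraries, and their summed FPKM was 4678 and 4969 in controls and 5138 and 5390 in resistant libraries. BANK1 was at or near 0 in all 4. Among markers of other cells, 2 of 16 for T and NK cells, 2 of 12 for myeloid cells, 1 of 12 for erythroid cells and platelets and 3 of 13 for stroma and epithelium reached 1. In that order these were TRAT1 and NKG7, CSF1R and S100A9, EPOR, and KRT18, CDH1 and PECAM1. Others such as CD3E, CD14, LYZ, HBB and EPCAM were under 0.3 throughout. S100A9 was the higher of the 2 myeloid ones, at 8.03 and 3.91 FPKM in controls and 34.1 and 7.05 in resistant libraries. Fewer cells of a kind and less RNA per cell cannot be told apart in bulk libraries.

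Of the listed interferon-induced genes that were higher in both pools, 11 carry the core of the interferon response element in the promoter, and excerpts of 5 show where it lies. They are given 5′ to 3′ on the gene's own strand, from RefSeq promoters of build GRCh38.p14, with the matches to GAAANNGAAA or its reverse complement in capitals. The authors' build was hg19, so these coordinates do not belong to the deposited files. The excerpt of IFI6 is chr1:27672246-27672315, that of ISG15 chr1:1013354-1013429, that of BST2 chr19:17405715-17405790, that of IFI44L chr1:78620345-78620414 and that of IFIT3 chr10:89327811-89327914. IFI6 and BST2 are on the minus strand and the others on the plus strand, and each excerpt lies upstream of the transcription start.
IFI6: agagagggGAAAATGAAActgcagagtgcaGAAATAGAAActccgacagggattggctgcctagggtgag
ISG15: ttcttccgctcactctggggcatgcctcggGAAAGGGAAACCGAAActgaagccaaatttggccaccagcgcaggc
BST2: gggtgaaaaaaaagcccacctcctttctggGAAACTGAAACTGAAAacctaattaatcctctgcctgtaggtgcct
IFI44L: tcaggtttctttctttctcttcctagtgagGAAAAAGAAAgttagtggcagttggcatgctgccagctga
IFIT3: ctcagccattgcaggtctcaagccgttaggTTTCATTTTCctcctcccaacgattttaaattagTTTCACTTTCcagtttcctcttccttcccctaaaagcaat

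The core was found in 23 of the 35 interferon list promoters with a sequence (65.7%), against 270 of 8903 for all tested genes (3.03%), searching both strands from 250 bases before the start to 50 after it. It was present in 11 of the 14 whose genes were higher in both pools by at least 0.5 (78.6%) and in 12 of the 21 others (57.1%). Outside the list, 20 of 404 promoters of genes higher by at least 0.5 in both pools held it (4.95%), as did 6 of 388 of genes lower by at least 0.5 (1.55%). At a difference of at least 1 it was in 6 of 59 higher (10.2%) and 0 of 43 lower members. The TATA box, searched as TATAAA on both strands, was in 7 of the 43 lower members (16.3%) and 6 of the 59 higher ones (10.2%), against 5.62% of all tested promoters, and at the threshold of 0.5 in 5.93% of lower and 5.98% of higher genes. A match is a stretch of letters and not a measured binding site.

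The interferon response list was the group with the most genes higher in both pools. Of its 46 tested genes, 17 (37.0%) were higher by at least 0.5 in both pools, against 4.88% of all tested genes, and 1, ZC3HAV1, was lower, against 4.39%. The list's median difference was 0.50 in pool 17 and 0.50 in pool 28, beside -0.03 and 0.00 for all tested genes. None of the 46 passed limma's adjusted threshold of 0.05 over all genes in the 4 libraries, although 38 (82.6%) had a positive difference in both pools, against 33.0% of all genes. With the pool as a replicate block 2 of the 46 passed, IFI44L and IFI6. The list was drawn up with earlier results of these data known, so its direction is not independent evidence.

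IFI44L, an interferon-induced gene of unsettled function, stood at 2.85 FPKM in control 17 and 2.77 in control 28, against 12.6 in resistant 17 and 10.7 in resistant 28. The groups lay far apart, with a log2 difference of 1.73 (SE 0.17), and the limma adjusted p was 0.0665, or 0.0274 with the pool as a replicate block. IFI6, which encodes a small antiviral membrane protein, had 26.2 and 24.8 FPKM in controls and 63.7 and 74.3 in resistant libraries, a log2 difference of 1.40 (SE 0.16, limma adjusted p = 0.0827, and 0.0391 with the block). IFI35, whose product binds the partner protein NMI, had 21.9 and 15.1 FPKM in controls and 47.0 and 48.9 in resistant libraries. These 3 were the members of the list higher by at least 1 in both pools. In each case both resistant libraries exceeded both controls. So they did in all 86 higher members, which were chosen by the difference within each pool, so this does not set the 3 apart. When all 4 differences between resistant and control libraries had to reach 1, 52 of the 86 remained.

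Genes of the signalling step itself were among the others. IRF9, the DNA-binding subunit of the STAT complex, had 30.3 and 28.4 FPKM in controls and 54.8 and 58.7 in resistant libraries. IRF7, a transcription factor that amplifies interferon production, had 34.6 and 31.5 in controls and 64.3 and 62.0 in resistant libraries. The resistant values of both genes were closely spaced and lay well above both controls. STAT2 differed by -0.26 in pool 17 and 0.11 in pool 28.

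Effector genes covered a wide range of levels. ISG15, a ubiquitin-like modifier, had 215 and 279 FPKM in controls and 363 and 752 in resistant libraries. BST2, which tethers budding virus to the cell surface, had 145 and 108 in controls and 235 and 255 in resistant libraries. Both groups were separate for each gene, but ISG15 in resistant 28 stood far above resistant 17. MX1, a GTPase that blocks viral nucleocapsids, had 213 and 193 FPKM in controls and 303 and 350 in resistant libraries. The proapoptotic XAF1 gene had 1.52 and 1.94 FPKM in controls and 4.52 and 4.60 in resistant libraries. OAS1 and OAS2, which make 2-5A, differed by 1.07 and 0.67 in pool 17 and by 0.49 and 0.58 in pool 28.

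**Figure D1:**
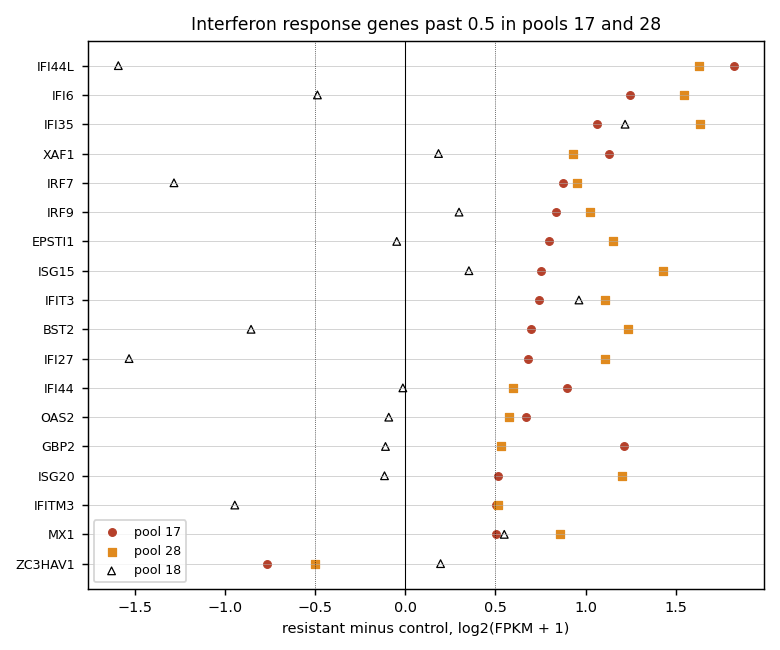
The rows are the 17 genes of the interferon response list that were higher by at least 0.5 in both pools 17 and 28 and the 1 that was lower, ZC3HAV1, and the x axis is the resistant minus control difference on log2(FPKM + 1) in pool 17 (circles), pool 28 (squares) and pool 18 (open triangles), 1 pair of libraries each. The dotted lines mark 0.5 and -0.5, beyond which circles and squares lie by that choice, while the triangles scatter on both sides of 0.

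Pool 18, whose libraries did not enter the choice, did not show the interferon difference as a group. Its median over the same 46 genes was 0.01, beside 0.06 for all tested genes. IFI44L was 7.19 FPKM in control 18 and 1.72 in resistant 18, a difference of -1.59, and IRF7 was 44.8 and 17.8, a difference of -1.28. IFI35 did have the direction of pools 17 and 28, with 25.7 FPKM in control 18 and 61.1 in resistant 18. With the trends with GC content and transcript length removed, 16 genes of the list were higher by at least 0.5 in both pools 17 and 28. The medians were then 0.49 and 0.57.

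Of the 11092 genes, 7 (0.0631%) passed limma's adjusted threshold in the 4 libraries, all of them members: 3 rose and 4 fell in the resistant libraries. With the pool number as a replicate block the count was 67, with 40 higher and 27 lower, and it included all 7. Without control 17 no gene passed (2739 had an unadjusted p under 0.05), and the limma adjusted p of all 7 was 0.0979. Without control 28 none passed either (1144 unadjusted), and without resistant 17 and resistant 28 the counts were 53 and 68. Without the filter on low values none of 18911 genes passed (2578 had an unadjusted p under 0.05), against 2163 of 11092 with it.

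BIN1, the membrane-bending adaptor that also binds MYC, fell from 31.8 and 30.3 FPKM in controls to 4.79 and 4.09 in resistant libraries, a log2 difference of -2.56 (SE 0.16, limma adjusted p = 0.0133). Each pool gave nearly the same value, -2.50 and -2.62, and pool 18 gave -2.44. MAGEA1 and PAGE1, cancer-testis antigens of the X chromosome that are silent in most adult tissues, also fell. MAGEA1 had 22.8 and 16.7 FPKM in controls and 1.20 and 0.530 in resistant libraries (log2 difference -3.48, SE 0.25, adjusted p = 0.0193). PAGE1 had 9.92 and 9.30 FPKM in controls and 0.675 and 0.648 in resistant libraries (-2.67, SE 0.16, adjusted p = 0.0133). In pool 18 MAGEA1 was 22.4 FPKM in the control and 33.6 in the resistant library, whereas PAGE1 was already 1.10 in the control and 0.519 in the resistant library.

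ANKRD28, a regulatory subunit gene of protein phosphatase 6, stood at 13.0 FPKM in control 17 and 17.2 in control 28 and was listed at 0 in both resistant libraries (limma adjusted p = 0.0107). In pool 18 it was the other way about, listed at 0 in the control and at 20.2 FPKM in the resistant library. An exact 0 in these files can be a failed estimate, so no fold is given and the log2 differences of this gene (-3.80, -4.18 and, in pool 18, 4.41) only set a listed value against 0. The resistant libraries then have no spread, so the limma adjusted p rests on the same 0 values and is as uncertain. How the pairs could trade places was not tested.

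TSPAN7, a tetraspanin of the cell surface, rose from 1.27 and 1.73 FPKM to 18.7 and 13.95, a log2 difference of 2.78 (SE 0.21, limma adjusted p = 0.0198). In pool 18 it was 1.31 in the control and 0.187 in the resistant library. The remaining 2 genes that rose, NEDD8-MDP1 and ATP6V1G2-DDX39B, are readthrough symbols that join neighbouring genes and share exons with them. NEDD8-MDP1 was listed at 0 in both controls and at 19.7 and 11.6 FPKM in resistant libraries, and ATP6V1G2-DDX39B had 1.13 and 1.16 against 6.95 and 7.68. No source used here says how the authors' counting divided shared reads, so the values of both genes are uncertain. The limma call of NEDD8-MDP1 also rests on its 0 values in the controls, which can be failed estimates. In all, 7 of the 86 higher members were readthrough symbols and 3 were antisense symbols, 8.14% and 3.49%, against 0.334% and 0.884% of all tested genes. None of the 56 lower members was either.

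**Figure D2:**
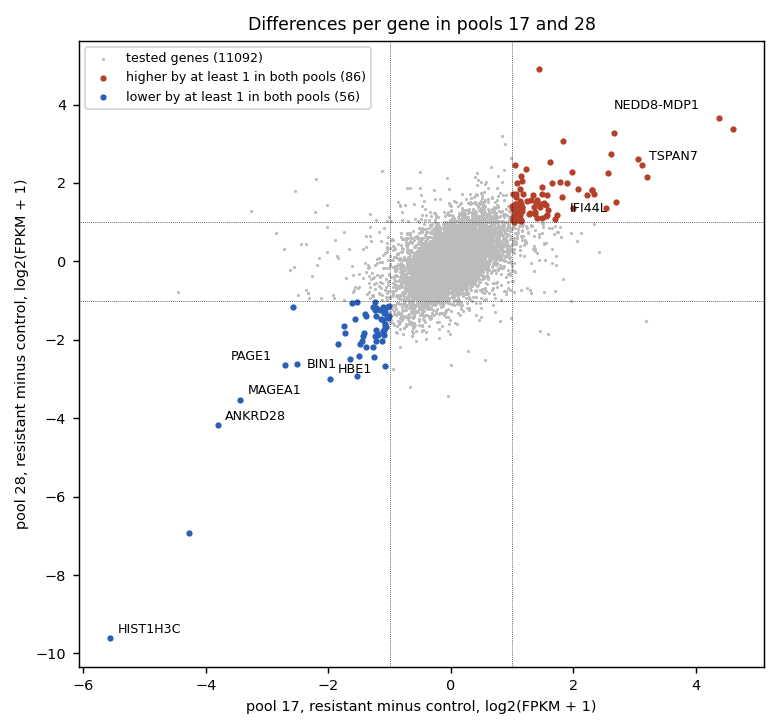
Each point is 1 of 11092 tested genes, with the resistant minus control difference on log2(FPKM + 1) in pool 17 on the x axis and in pool 28 on the y axis. Coloured points are the 86 genes higher and the 56 lower by at least 1 in both pools, beyond the dotted lines, and the lowest point is HIST1H3C at -5.56 and -9.61.

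By the smaller of their differences in both pools, 2 adjacent histone genes were the lowest of all members. HIST1H3C, which encodes histone H3, stood at 1006 FPKM in control 17 and 1385 in control 28, against 20.4 in resistant 17 and 0.776 in resistant 28. HIST1H2BB, its neighbour for histone H2B with no tested gene between them, had 239 and 226 in controls and 11.4 and 0.870 in resistant libraries. Both were also far lower in resistant 18, at 8.86 FPKM against 1078 for HIST1H3C and 17.0 against 231 for HIST1H2BB. The 2 resistant libraries differed much from each other. Limma's adjusted p was 0.101 for each, and 0.0330 and 0.0270 with the replicate block. Replication-dependent histone genes are near-identical copies whose reads can be divided among them, so single-gene values are uncertain.

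The histone list had unlike medians in the 2 pools. Of 62 tested replication-dependent histone genes, 8 were lower by at least 0.5 in both pools (12.9%, against 4.39% of all genes) and 1 was higher (1.61%, against 4.88%), and the median was 0.03 in pool 17 and -0.57 in pool 28. HIST1H4L had 127 and 83.3 FPKM in controls and 37.5 and 22.7 in resistant libraries, but 39.4 and 328 in control 18 and resistant 18. Among variant histones made outside S phase, the linker histone gene H1F0 had 8.87 and 5.97 FPKM in controls and 3.46 and 1.53 in resistant libraries. The linker histone gene H1FX was on the other side, at 35.2 and 28.1 in controls and 78.9 in both resistant libraries.

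HBE1, the embryonic epsilon-globin gene, had 19.6 and 26.3 FPKM in controls and 4.27 and 2.44 in resistant libraries (log2 difference -2.48, SE 0.26, limma adjusted p = 0.0702, and 0.0311 with the block). OR51B5, an olfactory receptor gene that is its next tested neighbour on chromosome 11, had 3.77 and 3.53 FPKM in controls and 0.608 and 0.648 in resistant libraries. Both were lower in pool 18 as well, by differences of -2.67 and -0.99. HBB, HBA1 and HBA2 were listed at 0 in all 6 libraries.

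Chromatin regulators had negative medians in all 3 pools. Of 46 tested genes, 10 (21.7%) were lower by at least 0.5 in both pools, against 4.39% of all genes, and 0 were higher. Pools 17, 28 and 18 had list medians of -0.28, -0.59 and -0.29, and 0 of the 46 passed limma, or 1, KDM3A, with the pool as a replicate block (adjusted p = 0.0478). The median of at least 1 pool came within 0.25 of 0 with a pseudocount of 5, with no filter, at a mean FPKM of at least 5 and with GC and length trends removed. KDM3A, a histone H3 lysine demethylase, had 14.3 and 13.6 FPKM in controls and 5.53 and 5.41 in resistant libraries. The spread within each group was small against the gap. MLL, MLL2, MLL3, MLL4 and MLL5, named for their relation to the mixed-lineage leukaemia gene, all had differences between -1.51 and -0.58 in the 2 pools. EP300, an acetyltransferase, had 4.48 and 7.95 FPKM in controls and 2.23 and 2.39 in resistant libraries.

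These genes are long, and length and base composition moved with the differences. The chromatin genes had a median transcript length of 3164 bases, against 1734 for all genes with a length. Among the fifth of genes with the longest transcripts, 7.97% were lower in both pools by at least 0.5 and 2.05% higher, and among the fifth richest in GC, 9.02% were higher and 3.72% lower. Genes higher by at least 0.5 in both pools had a median length of 1305.5 bases and a median GC content of 56.2%, and those lower had 2246 bases and 50.7%. With both trends removed, 7 of 44 chromatin genes were lower by at least 0.5 in both pools, with medians of -0.22 and -0.39. Of the members with a length, 52 of 69 higher and 44 of 55 lower ones still passed 1 in both pools. The part of length and GC content in the remaining differences was not tested.

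**Figure D3:**
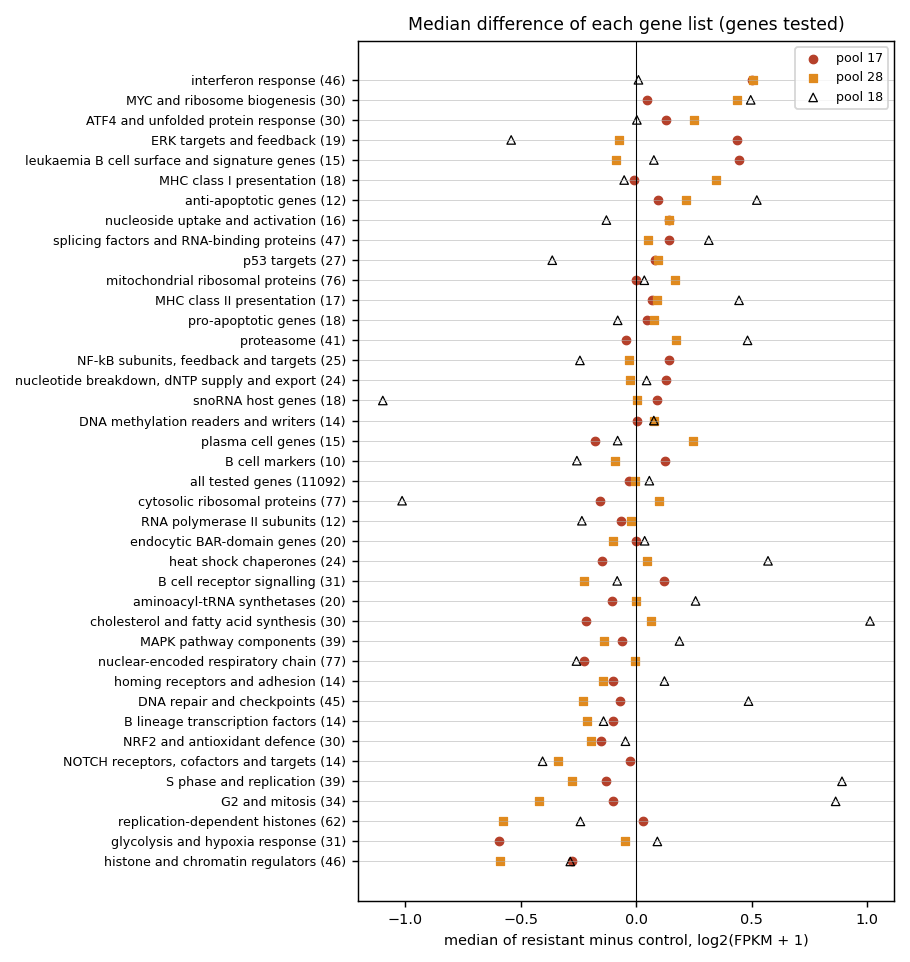
Each row is a list with at least 10 tested genes (their number in brackets), and the x axis is the list's median resistant minus control difference on log2(FPKM + 1) in pool 17 (circles), pool 28 (squares) and pool 18 (open triangles). The interferon list, at 0.50 in both pools, is at the top and the chromatin regulators, at -0.28 and -0.59, at the bottom.

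Genes with roles in transcription and splicing were among the lower members too. POLR2A, the catalytic subunit of RNA polymerase II, had 12.8 and 25.5 FPKM in controls and 3.39 and 3.71 in resistant libraries. SON, a splicing cofactor, had 36.1 and 58.4 in controls and 13.2 and 12.003 in resistant libraries. PRPF8, the core of the spliceosome, had 31.0 and 57.2 in controls and 14.2 and 17.4 in resistant libraries. In each case control 28 was well above control 17 and the resistant libraries were close together. The giant ubiquitin ligase genes HUWE1 and UBR4 and the dynein heavy chain gene DYNC1H1 had differences between -1.48 and -1.09. Splicing genes as a list had no shared direction, with 5 of 47 higher and 5 lower by at least 0.5 in both pools. Each share was 10.6%, against 4.88% higher and 4.39% lower among all tested genes. Those higher included HNRNPU, at 34.4 and 32.0 FPKM in controls and 63.5 and 56.4 in resistant libraries.

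Glycolysis and hypoxia genes were lower in both pools in small numbers. Of 31 tested glycolysis and hypoxia genes, 5 were lower in both pools by at least 0.5 (16.1%, against 4.39% of all genes) and 0 were higher (against 4.88%), with medians of -0.60 in pool 17 and -0.05 in pool 28. The 5 include KDM3A, which is also counted among the chromatin regulators above. ENO2, an enolase, had 54.4 and 43.3 FPKM in controls and 21.9 and 23.1 in resistant libraries, and LDHA, lactate dehydrogenase A, had 262 and 237 against 148 and 111. Of 30 cholesterol and fatty acid synthesis genes 4 were lower (13.3%) and 2 higher (6.67%), and with GC and length trends removed 1 was lower and 1 higher. Fatty acid synthesis genes FASN and SCD differed by -0.88 and -0.97 in pool 17 and by -0.85 and -0.75 in pool 28, and both were higher in pool 18. With the trends removed their pool 28 differences were -0.38 and -0.48. ME1, the malic enzyme that supplies NADPH, had 3.03 and 3.23 FPKM in controls and 0.735 and 0.859 in resistant libraries.

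Ribosome biogenesis and translation gave a mixed picture. Of 30 genes of the MYC and ribosome biogenesis list, 5 were higher by at least 0.5 in both pools (16.7%, against 4.88% of all genes) and 0 lower (against 4.39%), and the medians were 0.05 and 0.43. RRS1, an assembly factor of the large ribosomal subunit, had 9.98 and 4.08 FPKM in controls and 23.2 and 21.9 in resistant libraries. RPS16, a protein of the small subunit, had 404 and 172 in controls and 1436 and 1441 in resistant libraries, and 221 and 1085 in control 18 and resistant 18. Of 77 cytosolic ribosomal protein genes 4 were higher and 1, RPL27, was lower, shares of 5.19% and 1.30%. These genes have many processed pseudogenes, which can take part of their reads.

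Lists of B cell biology held few genes past 0.5 in both pools. Of 15 leukaemia B cell surface and signature genes 3 (20.0%) were higher and 0 lower, and of 10 B cell markers 2 (20.0%) were higher and 0 lower, against 4.88% and 4.39% of all tested genes, but the medians of both lists had opposite signs in the 2 pools. CD79B, a signalling chain of the B cell receptor, had 213 and 141 FPKM in controls, against 463 and 265 in resistant libraries. CD40, a costimulatory receptor, had 262 and 163 FPKM in controls and 432 and 363 in resistant libraries. IGLL5, an immunoglobulin lambda-like gene, had 16.4 and 14.6 in controls and 68.4 and 39.0 in resistant libraries, and it shares sequence with immunoglobulin lambda segments. On the lower side, CD9, a tetraspanin, had 35.0 and 26.3 FPKM in controls and 14.3 and 6.29 in resistant libraries. CCL22, a chemokine that draws CCR4-bearing T cells, had 3.06 and 7.50 in controls and 0.437 and 0.589 in resistant libraries. Of 31 B cell receptor signalling genes 3 were higher (9.68%) and 1 lower (3.23%), and of 25 NF-kB genes 1 was higher and 1 lower, 4% each and near the shares over all genes.

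Transcription factor genes at low levels in controls were among the higher members. HOXD13, a homeobox gene of the distal limb, had 1.26 and 0.321 FPKM in controls and 12.8 and 7.85 in resistant libraries. FOXD1, a forkhead factor of the kidney stroma, had 0.920 and 0.152 in controls and 6.53 and 4.55 in resistant libraries. SOX12, a SOXC transcription factor, had 2.24 and 1.81 in controls and 14.95 and 8.94 in resistant libraries. In pool 18 these genes lay at or below their control, with differences of -0.50, -0.17 and -0.27. The homeobox gene PRRX1 was among the lower members, at 4.49 and 6.61 FPKM in controls and 1.01 and 0.853 in resistant libraries. Its pool 18 difference was 0.01. SOX12 and ZCCHC3, another higher member, are consecutive tested genes on chromosome 20. Of the 86 higher members, 23 were under an FPKM of 1 in both controls, and of the 56 lower ones 14 were under it in both resistant libraries.

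**Figure D4:**
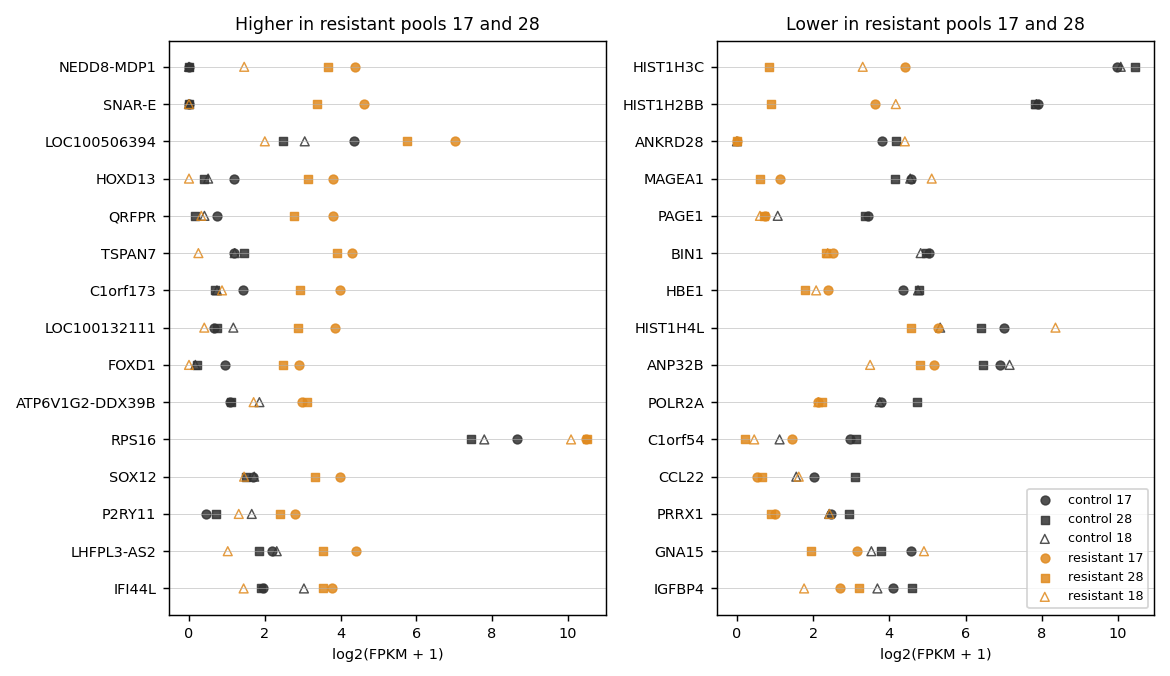
Each row is 1 of the 15 genes per direction with the largest smaller-of-both-pools difference among members with a mean FPKM of at least 5 in the higher group. The x axis is log2(FPKM + 1) in each library, dark for control and orange for resistant, circles for pool 17, squares for pool 28 and open triangles for pool 18. Control and resistant libraries of pools 17 and 28 do not overlap in any of the 30 genes, as the rule required, and resistant 18 lies near the controls for most of the higher ones.

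The genes by which fludarabine is handled or escaped showed little that was shared. None of 16 tested genes of nucleoside uptake and activation passed 0.5 in both pools, against 4.88% higher and 4.39% lower among all tested genes. DCK, the kinase that activates fludarabine, differed by -0.18 in pool 17 and -0.81 in pool 28. TYMS, thymidylate synthase, had 45.2 and 67.0 FPKM in controls and 25.3 and 25.1 in resistant libraries. Of 27 tested p53 targets, GADD45A alone passed 0.5 in both pools, at 70.2 and 83.3 FPKM in controls and 143 and 174 in resistant libraries. BCL2A1, an anti-apoptotic BCL2 relative, was the only 1 of 12 in its list (8.33%), at 123 and 113 in controls and 190 and 209 in resistant libraries. BRAF differed by -0.05 and -0.96.

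Pool 18 had the direction of pools 17 and 28 for most lower members and for about as many higher members as not. Of the 56 lower members, 45 (80.4%) were lower in resistant 18 than in control 18, against 45.9% of all tested genes, and 26 (46.4%) by at least 1, against 6.45%. Their median difference there was -0.98. Of the 86 higher members, 42 (48.8%) were higher in resistant 18, against 54.1% of all genes, and their median was 0.00. By at least 1, 14 of them (16.3%) were higher there, against 5.31% of all genes, and 12 (13.95%) were lower, against 6.45%. With GC and length trends removed, 63.8% of 58 genes higher by that measure were higher in pool 18. Pool 18 is 1 pair of libraries, so these shares have no replicate error, and the difference between the directions was not tested.

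Lower in all 3 pools by at least 1 were, besides HIST1H3C, HIST1H2BB, BIN1 and POLR2A, genes such as ANP32B, an acidic nuclear chaperone. Its FPKM was 119 and 86.6 in controls against 35.1 and 26.7 in resistant libraries, with 142 in control 18 and 10.3 in resistant 18. IGFBP4, a binding protein of insulin-like growth factors, had 16.1 and 23.2 in controls and 5.53 and 8.25 in resistant libraries, with a pool 18 difference of -1.92. The methyl-CpG binding gene MBD2 was higher by 1.02, 1.14 and 1.18 in pools 17, 28 and 18. In the opposite sense, 6 of the 56 lower members (10.7%) were higher by at least 1 in pool 18, against 5.31% of all genes.

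**Figure D5:**
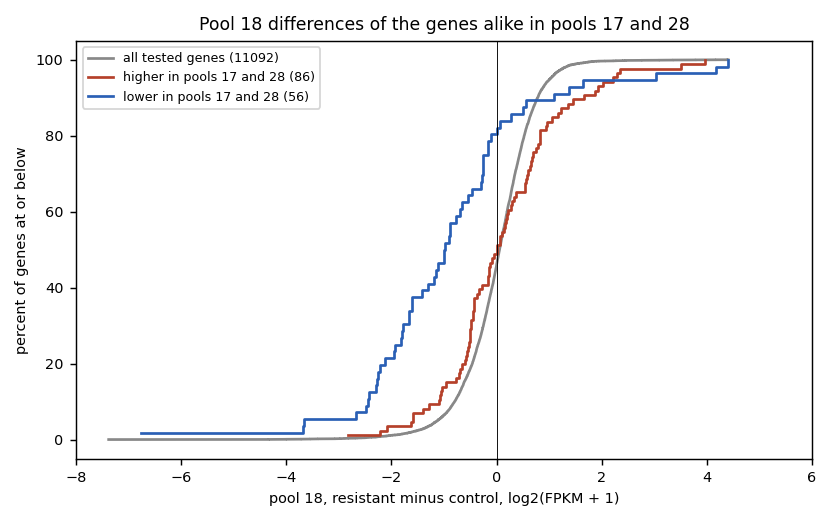
The x axis is the resistant minus control difference of pool 18 on log2(FPKM + 1), and the y axis the percent of genes at or below it, for all 11092 tested genes, the 86 higher members and the 56 lower members. The curve of the lower members lies to the left, with a median of -0.98, and that of the higher members crosses 50% near 0, as that of all genes does.

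The threshold of 1 falls within a dense range of values. Just inside it on the higher side were MEF2BNB and TRAF3IP3, with smaller differences of 1.003 and 1.013, and just outside were DOK1 and FAM98C, with 0.996 and 0.989. On the lower side NUP160 and CYB5A were just inside, with -1.005 and -1.008 in pool 17, and IQSEC1 and GRAP just outside, with -0.995 and -0.994. The member counts also move with the libraries. They were 257 higher and 256 lower without control 17, and 72 and 68 without control 28. Without resistant 28 they were 156 and 112, and without resistant 17 they were 123 and 89. Each time the remaining library of that group was set against both libraries of the other group.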

How the data were processed

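The authors deposited 1 FPKM value for each of 23619 gene symbols per library, per the file headers. The submitters' processing notes name hg19, DESeq2, HTSeq 0.6.1, Cufflinks 2.2.1 and TopHat2 2.0.4, without the role of each. Counts were not used here, so no count model was fitted and absolute depth is unknown. Small RNA symbols were left out; host genes of microRNAs and SNAR genes were kept.

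Differences were taken on log2(FPKM + 1), which understates changes of low genes, for genes that reached an FPKM of 1 in at least 2 of these 4 libraries. They were fitted with limma 3.58.1 in R 4.3.3 (two-sided, mean-variance trend, Benjamini-Hochberg adjustment over all tested genes, threshold 0.05), tested on simulated data. The design text names pairs, so libraries of equal number were read as pairs; deviations from the group means correlated at 0.102. The reported fit has no block. Alternatives changed the pseudocount, filter, scaling, GC and length trends, block, threshold and libraries.

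Members and the 45 gene lists were chosen with earlier results of these data known. Genes were named by rule: the 15 per direction with the largest smaller difference of the 2 pools, a mean FPKM of at least 5 in the higher group and no overlap, up to 4 per list past 0.5 in both pools, 2 on each side of the threshold, and BIN1, HBE1, DCK and BRAF. Other genes were chosen after their values were seen. Transcript length and GC content came from GENCODE v29, matched by symbol for 94.5% of tested genes and 87.3% of members, and gene order and promoters from RefSeq.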

Additional observations from a re-analysis of the deposited data

Results flagged for a closer look

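Among named genes that differed by at least 1 in both pools 17 and 28, there were 6 in which pool 18 differed by at least 1 on the log2(FPKM + 1) scale in the direction opposite to pools 17 and 28, and the difference between the pools was not tested. ANKRD28 was -3.80 and -4.18 in pools 17 and 28 and 4.41 in pool 18, each against a library listed at 0, which can be a failed estimate. HIST1H4L was -1.73 and -1.83 against 3.03. GNA15, a G protein alpha subunit gene of blood cells, was -1.41 and -1.82 against 1.38. On the higher side IFI44L was 1.82 and 1.63 against -1.59, the antisense gene LHFPL3-AS2 was 2.22 and 1.68 against -1.29, and the uncharacterised LOC100506394 was 2.67 and 3.26 against -1.05. Pool 18 rests on 1 library per group in each case.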

How the results depend on the processing

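Limma's 7 calls became 67 with the pool number as a replicate block, 35 with the replicate block after removal of GC and length trends, and 0 without a filter; with single libraries left out they ranged from 0 to 68. The cause was not tested. The 86 higher and 56 lower members became 156 and 131 with a pseudocount of 0.1, 24 and 18 with 5, 54 and 37 at a mean FPKM of at least 5, 52 and 32 when all 4 differences had to pass, 541 and 487 at a threshold of 0.5, and 22 and 12 at 1.5. With single libraries left out they ranged from 72 to 257 and from 68 to 256. The share of higher members that were higher in pool 18 moved from 48.8% to 25% with a pseudocount of 5, 63.8% with the trends removed and 27.3% at a threshold of 1.5. Lists whose medians lay at least 0.25 the same way in both pools were 2, interferon and chromatin, and 1, interferon, with a pseudocount of 5, with no filter, at a mean FPKM of at least 5 and with the trends removed. None of 117 named genes changed direction in limma under any alternative. Apart from DCK and BRAF, these genes were named for differing the same way in both pools. Their stable direction was thus largely set by that choice and is not evidence for it. Absolute depth is unknown, so no counting error was computed.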
